A study of Populus tomentosa with 12 samples.

Results

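RNA sequencing compared the root and the shoot of iron-supplied Populus tomentosa, a white poplar of China, in 3 root and 3 shoot libraries out of 12 in the series. They were chosen by their labels alone: tissue Root or Shoot, and group Fe-sufficient. The plants of both tissues were micropropagated seedling-stage plants on woody plant medium with 1.5% sucrose and 1 mg/L of the auxin NAA, at 24 °C under 16 h of light. They were then held in a solution with 100 µM Fe, and the labels state no strain, transgene or other treatment for either tissue. The shoot libraries are titled CK with Fe and WT without it, letters that the labels do not explain, so groups follow the labelled Fe supply and a difference in genotype was not checked. The other 6 libraries come from plants held at 0 µM Fe and serve here as a separate set for the same contrast. The labels' protocols speak of biological replicates but do not give the plants behind a library, so p-values measure the spread between these libraries.

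Roots anchor the plant and take up water and mineral ions, and are largely without chlorophyll. Shoots carry leaves and stem, and their green cells hold chloroplasts, which contain a genome of their own and run photosynthesis. Iron is a cofactor of the photosynthetic electron chain and of chlorophyll synthesis, and enters the plant through the root. Both organs are mixtures of many cell types, so in these bulk libraries fewer cells of a type and less RNA per cell cannot be told apart.

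Each file gives whole-number counts of reads for 42950 gene IDs that begin with Potri. The files do not pair these IDs with names, and none of them was found among the 60139 genes of the reference table for P. tomentosa (assembly PTv2). Genes are therefore given by ID and by group (prefix, level, place in the list), with no role attached. For the same reason the tissue labels were not checked against marker genes of roots or leaves.

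Tissue and counting coincide in these libraries. Among aligned reads that entered the counting, those counted as having no gene feature made up 1.30% to 1.41% in the root libraries and 49.5% to 49.9% in the shoot libraries. Where these reads lay was not checked, and the strand setting of the counting is not given. Ambiguous reads took 5.05% to 5.58% in roots and 0.947% to 1.41% in shoots. Root libraries held 9560265 to 10037151 reads in genes, and shoot libraries 5360670 to 6149779. A difference of tissue and a difference of counting cannot be told apart for any single gene, so the results rest on differences of at least 4-fold. The other 6 libraries share the same split and give no separation of tissue and counting.

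The tissues differed in a large part of the transcriptome. Of 23893 genes with enough counts to be tested, 2895 (12.1%) were at least 4-fold higher in roots and 3417 (14.3%) at least 4-fold higher in shoots (quasi-likelihood test of edgeR with an adjusted p below 0.05). Together these 6312 genes made up 26.4% of the tested genes and are the called genes below. At any fold, 14529 genes (60.8%) passed the test, of which 51.3% were higher in shoots. The root and shoot libraries did not overlap in 68.2% of all tested genes, and in 2870 of the root-higher and 3407 of the shoot-higher calls. The median log2 fold change (shoot minus root) was -3.44 among root-higher and 3.68 among shoot-higher calls, against -0.00 over all tested genes. With genes that had no count in 1 tissue set to a bound from 3 counts over its 3 libraries, the first 2 medians were -3.39 and 3.68. Levels are given as CPM, gene counts scaled to equal library totals after TMM normalisation. TMM sets its factors as though most genes do not differ between libraries. The median of -0.00 over all tested genes and the split of 51.3% at any fold depend on that assumption.

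**Figure D1:**
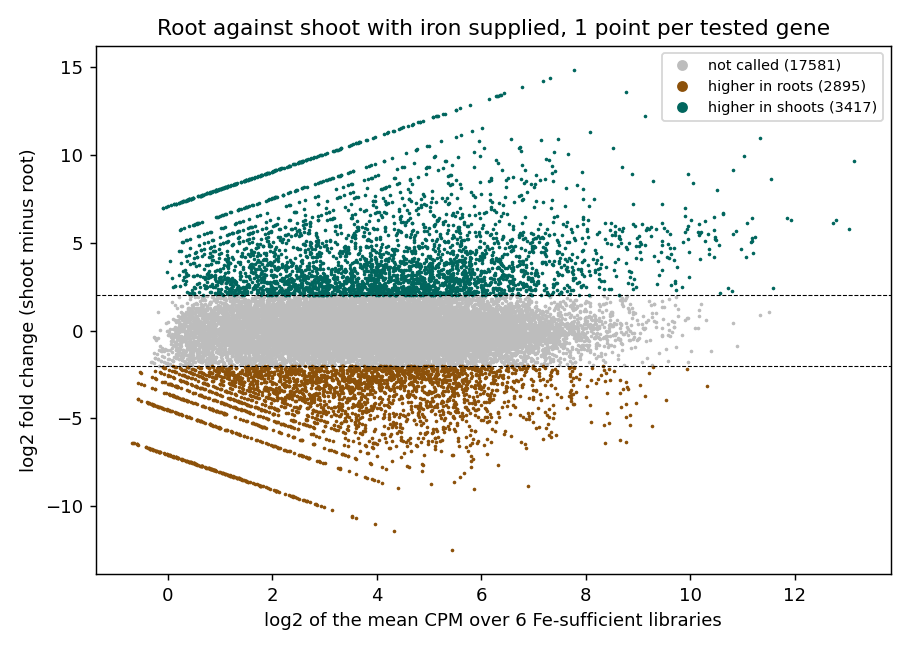
Log2 fold change (shoot minus root) against the log2 of the mean CPM over 6 Fe-sufficient libraries, 1 point per tested gene. Brown points are the 2895 genes called higher in roots and green points the 3417 called higher in shoots; dashed lines mark 4-fold, and slanting rows of points are genes with few or 0 counts in 1 tissue.

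The balance of the calls depended on the scaling. The factors of the TMM normalisation were 1.19 to 1.22 in roots and 0.788 to 0.851 in shoots. Without TMM, the log2 fold changes shifted by a median of -0.54, and 3899 genes were then at least 4-fold higher in roots against 2667 in shoots. The share of calls that are higher in shoots was thus 54.1% with TMM and 40.6% without it, and at any fold 51.3% and 31.3%. Of the 6312 calls, 5562 kept their direction and threshold without TMM, and 0 were called the other way.

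The number of shoot-higher genes exceeded that of root-higher genes more and more as the fold rose. Shoot-higher genes made up 52.7% of the calls at 2-fold, 57.4% at 16-fold (1493 against 1106 genes) and 64.3% at 64-fold (698 against 387 genes). The depth of the libraries bears on the last of these values, since 3 counts over the 3 libraries correspond to 0.0846 CPM in roots and 0.210 CPM in shoots. With the lower tissue raised to 0.210 CPM wherever it was below, 961 root-higher and 1414 shoot-higher genes reached 16-fold. At 64-fold 159 and 437 genes did, at 256-fold 8 and 118, and at 1024-fold 0 and 14. In that count the shoot-higher share was 59.5%, 73.3%, 93.7% and 100% at these folds. Over a fixed floor only abundant genes can reach the highest folds. Of the 4-fold calls, 760 shoot-higher and 337 root-higher genes lay above 100 CPM in the higher tissue. The rise thus reflects level as well as fold, and these shares are given with TMM only.

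Ranked by fitted fold, the top 2 calls per direction of at least 10 CPM had no counts in the other organ. A small count that the fit adds (the prior count) sets such folds, so bounds are given instead. Potri.003G099500 had 2217, 2159 and 1904 counts in shoot replicates 1, 2 and 3, and 0 counts in each of the 3 root libraries. All shoot libraries lay close together at 439 ± 20.1 CPM (SD, n = 3), far above the roots. With a floor of 3 counts over the root libraries, it was at least 5194-fold higher in shoots (adjusted p by edgeR 3.17e-07). Potri.010G218900 had 1554, 1152 and 1790 counts in the shoot libraries and 0 in each root library. Its shoot level was 316.5 ± 79.4 CPM (SD, n = 3), at least 3718-fold above the same floor (adjusted p by edgeR 7.76e-07). Both IDs were also at 0 counts in all 3 root libraries without Fe.

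On the root side, Potri.006G202600 had 812, 1029 and 1259 counts in root replicates 1, 2 and 3 and 0 counts in each shoot library. Its root level was 87.2 ± 17.6 CPM (SD, n = 3), at least 416.5-fold above a floor of 3 counts over the shoot libraries (adjusted p by edgeR 1.485e-06). Potri.018G098000 had 657, 348 and 415 counts in the root libraries and again 0 in each shoot library. Replicate 1 was the highest of its root libraries, and the mean was 40.3 ± 14.9 CPM (SD, n = 3). It was at least 191-fold higher in roots (adjusted p by edgeR 1.52e-05). With the common floor of 0.210 CPM, 8 root-higher genes reached 256-fold, so its rank holds for the fitted fold only. Unlike the shoot genes above, these IDs had a few counts in the other organ without Fe. Fe-deficient shoots gave 5, 1 and 2 counts of Potri.006G202600, and 11, 2 and 3 counts of Potri.018G098000. The change of the tissue difference with Fe supply did not pass the test for either (adjusted p by edgeR 0.179 and 0.101).

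**Figure D2:**
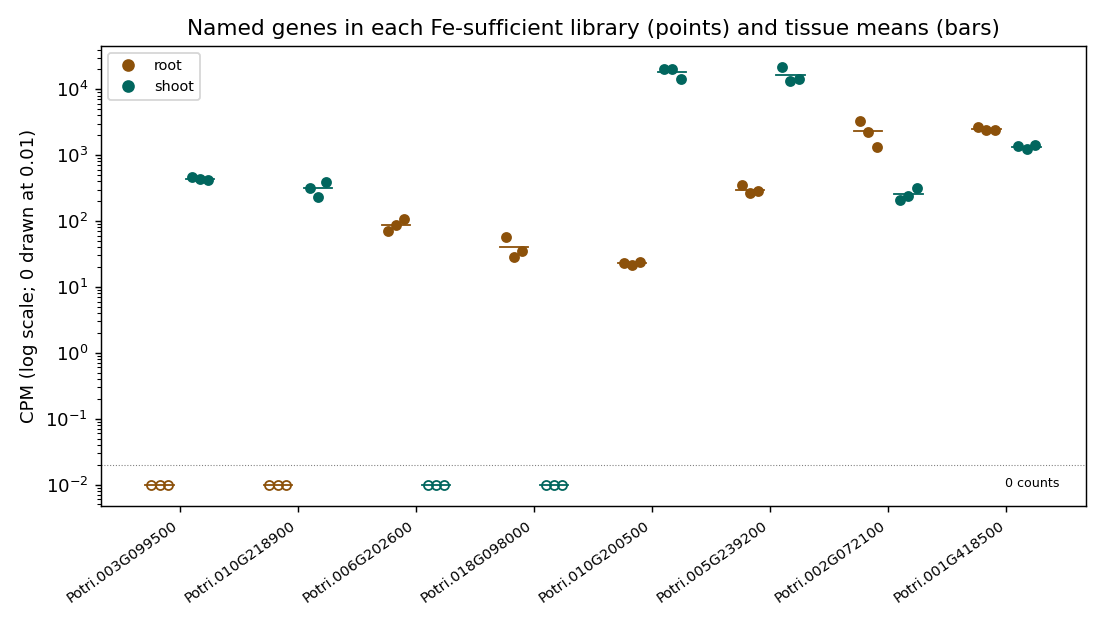
CPM on a log axis in each of the 3 root (brown) and 3 shoot (green) Fe-sufficient libraries for 8 named genes, with short bars at the tissue means; open points at the bottom are libraries with 0 counts. The first 4 genes have the largest folds and are at 0 in the other tissue, and the last 4 have the largest differences in share of gene counts.

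Genes seen in 1 organ alone were counted next. By a rule of at least 1 CPM of library totals in all 3 libraries of 1 tissue and 0 counts in all 3 of the other, 228 genes were found in roots alone and 269 in shoots alone. The root-only genes had a median of 3.80 CPM and took 0.125% to 0.165% of the gene counts of root libraries. The shoot-only genes had a median of 4.79 CPM, reached 362 CPM and took 0.460% to 0.480% of shoot counts. A level of at least 10 CPM in every library of the tissue was held by 11 root-only and 59 shoot-only genes. Which class was larger depended on the rule and on the number of libraries per tissue. With at least 1 count in all 3 libraries and 0 in the other tissue, 998 genes were root-only and 603 shoot-only. At least 10 counts in all 3 against at most 1 in each other library gave 481 and 319. Leaving out a library loosens the rule of 0 counts. Without shoot replicate 1, 2 or 3, root-only genes numbered 318, 357 and 369 and shoot-only genes 292, 298 and 290. Without root replicate 1, 2 or 3, root-only genes numbered 278, 241 and 263 and shoot-only genes 317, 322 and 329.

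Without Fe, 205 of the 269 shoot-only genes were again at 0 in all root libraries, and 97 of the 228 root-only genes at 0 in all shoot libraries. At the other end, 23737 genes had at least 1 count in each of the 6 libraries, and 10073 had none in any of them. Root libraries detected 28933 to 29456 genes and shoot libraries 27402 to 27720. At an equal depth of 5360670 reads in genes, the expected numbers were 28018 to 28390 in roots and 27163 to 27720 in shoots, still without overlap. Equal depth does not remove the difference in counting, so tissue and counting cannot be told apart in this small difference. The difference in means (shoot minus root) of -739 genes had a two-sided exact permutation p of 0.1, the smallest that 3 against 3 libraries allow. It stayed 0.1 after adjustment over 7 measures of the libraries, none of which overlapped between the tissues.

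Shoot reads were concentrated in few genes. The 10 most abundant genes of a library took 9.27%, 8.04% and 7.10% of gene counts in shoots and 2.49%, 2.13% and 2.06% in roots, from the highest library to the lowest. The means were 8.13% ± 1.09 and 2.23% ± 0.233 (SD, n = 3 each), with an exact permutation p of 0.1. The 100 most abundant took 22.8% to 26.7% in shoots and 10.0% to 10.6% in roots. It took 773 to 1007 genes to reach 50% of the gene counts in shoots and 2031 to 2108 in roots.

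**Figure D3:**
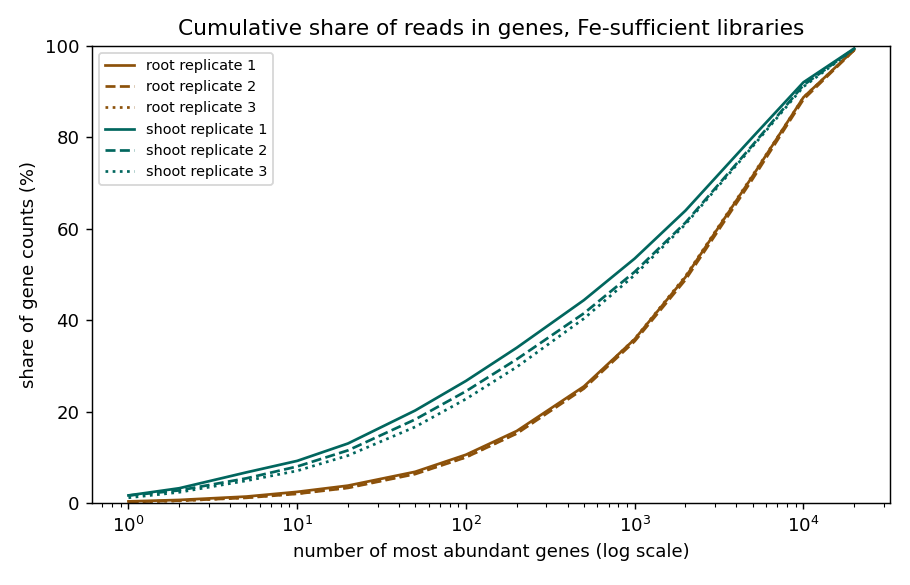
Cumulative share of gene counts (%) against the number of most abundant genes (log axis) in each Fe-sufficient library, roots in brown and shoots in green, with a line style for each replicate. The 3 shoot lines lie above the 3 root lines, at 7.10% to 9.27% against 2.06% to 2.49% for 10 genes.

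The shoot-higher calls carried 41.3% to 46.9% of all gene counts in shoots and 3.55% to 3.79% in roots. The root-higher calls carried 17.3% to 17.8% of counts in roots and 1.10% to 1.45% in shoots. These shares describe genes chosen on the same contrast and are no test of it. A level above 100 CPM in the higher tissue was reached by 760 (22.2%) of the shoot-higher and 337 (11.6%) of the root-higher calls. Split by the mean over all 6 libraries, shoot-higher calls made up 15.0% of the 8648 genes at 1 to 10 CPM, 12.6% of the 13207 at 10 to 100 CPM and 21.7% of the 1842 at 100 to 1000 CPM. Root-higher calls made up 16.6%, 9.18% and 8.47% of the same classes. Above 1000 CPM stood 63 genes, of which 50 were called at least 4-fold higher in shoots and 1 at least 4-fold higher in roots. Below 1 CPM the order was the other way, with 94 of 133 genes called higher in roots and 4 in shoots, under a filter on counts and with deeper root libraries.

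The largest single differences in share belonged to Potri.010G200500 and Potri.005G239200. Potri.010G200500 took 1.57%, 1.69% and 1.20% of gene counts in shoot replicates 1, 2 and 3, and 0.00274%, 0.00262% and 0.00282% in the roots. Its log2 fold change was 9.64 ± 0.320 (SE; adjusted p by edgeR 2.19e-07), and its root libraries agreed closely at 22.7 ± 1.11 CPM (SD, n = 3). Potri.005G239200 took 1.72%, 1.12% and 1.20% in shoots and 0.0424%, 0.0321% and 0.0337% in roots. It was thus present in roots too, at 300 ± 46.6 CPM (SD, n = 3), and the log2 fold change was 5.78 ± 0.316 (SE; edgeR gave an adjusted p of 7.585e-07). Shares are of reads and not per length, since gene lengths were not used here, so they do not order the genes by transcript number.

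Roots had no gene of that weight. Potri.002G072100 took 0.403%, 0.273% and 0.160% of gene counts in root replicates 1, 2 and 3, and 0.0165% to 0.0270% in shoots. The root libraries spread more than 2-fold, and all of them lay above the shoots (log2 fold change -3.17 ± 0.352, SE; adjusted p by edgeR 5.44e-05). Potri.001G418500 took 0.322%, 0.291% and 0.283% in roots and 0.108%, 0.105% and 0.119% in shoots. The log2 difference, -0.89 ± 0.182 (SE; edgeR gave an adjusted p of 0.00231), passed the test but not the 4-fold minimum. In the Fe-deficient libraries the same difference was -0.21 ± 0.191 (SE; adjusted p by edgeR 0.356).

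Replicates within a tissue were alike compared with the tissues. Spearman's rho over all genes was 0.975 to 0.979 between root libraries, 0.963 to 0.970 between shoot libraries and 0.8515 to 0.866 between a root and a shoot library. The common biological coefficient of variation was 0.214 in roots and 0.228 in shoots. In shoots it was 0.261, 0.161 and 0.245 without replicate 1, 2 or 3, and in roots 0.197, 0.253 and 0.185. The calls themselves varied within their own organ. Among root-higher calls with at least 10 CPM in roots, the highest root library exceeded the lowest by over 4-fold in 124 of 1779 (6.97%), against 1.15% of all tested genes at that level. For shoot-higher calls it did so in 35 of 2557 (1.37%), against 0.948% of all.

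The highest root library was replicate 3 in 1261 of the 2895 root-higher calls, replicate 1 in 875 and replicate 2 in 759. Among the 3417 shoot-higher calls, shoot replicate 1 was the highest in 1451, replicate 2 in 1281 and replicate 3 in 685. The same was not counted over all tested genes, so whether this order is particular to the calls was not tested. Leaving out any 1 of the 6 libraries kept 94.5% to 96.5% of the 6312 calls, with 0 called the other way.

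Called genes lay beside each other in the list of IDs more often than their share of all genes. IDs are listed in order within a prefix, such as Potri.001 or Potri.T. Of the root-higher calls, 22.4% were followed by a tested gene that was also higher in roots, beside 12.1% of all tested genes. Of the shoot-higher calls, 20.3% were followed by another one, beside 14.3%. A call in the opposite direction followed 11.3% of root-higher and 9.38% of shoot-higher calls, below the shares of all tested genes (14.3% and 12.1%). These are descriptions, since neighbours are not independent. Neighbouring copies of like sequence can share reads, and whether they do was not analysed here.

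Runs of called genes, with no other tested gene between them, were mostly short. Runs of at least 6 genes numbered 11 for roots and 6 for shoots, and the longest run of root-higher genes had 7. Among the root runs were Potri.011G037100 to Potri.011G039200 and Potri.014G033000 to Potri.014G034000, each of 7 genes, all of which were called higher in roots without Fe as well. All members were called again in 5 of the 11 root runs, and each of the others missed 1. The second longest shoot run, Potri.011G073900 to Potri.011G074800, held 8 genes, of which 4 were called again without Fe. Of the 6 shoot runs, 3 were called again in all members, among them Potri.013G074400 to Potri.013G075200 with 7 genes. Over all calls tested again without Fe, 80.6% of the root-higher and 82.2% of the shoot-higher ones were called again. These runs were singled out after their values were seen.

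One run was far longer than the others, with 32 shoot-higher genes in a row from Potri.013G137700 to Potri.013G143900. A run of 7 shoot-higher genes stood directly before it, from Potri.013G136466 on, with 1 tested gene between them. That gene, Potri.013G137300, was also higher in shoots by 1.60 ± 0.597 on the log2 scale (SE; edgeR gave an adjusted p of 0.0422). The whole stretch lists 90 IDs, of which 40 were tested, 39 were called higher in shoots and 29 were at least 16-fold higher there. Over all tested genes 14.3% were called higher in shoots. The other 50 IDs were too low to test, with at most 60 counts over the 6 libraries. The stretch was chosen after its values were seen.

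Levels within the stretch differed widely. The fitted log2 fold changes had a median of 5.91, and of 5.74 with the genes at 0 in roots set to their bound. The lowest was 1.60 and the highest bound 11.73. That bound belongs to Potri.013G138584, with 0 counts in all 3 root libraries and 288 CPM on average in shoots. Potri.013G136466, the first gene, stood at 0.365 CPM in roots and 314 CPM in shoots (log2 fold change 9.69 ± 0.416, SE; adjusted p by edgeR 3.19e-07). The most abundant one, Potri.013G140100, had 52.5 CPM in roots and 529 CPM in shoots (3.33 ± 0.528, SE; adjusted p by edgeR 0.000577). In 4 of the 40 genes the root libraries held no count at all.

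Taken as a sum, the 40 genes had 1652, 1350 and 1962 counts in root replicates 1, 2 and 3, and 25245, 10986 and 15783 counts in shoot replicates 1, 2 and 3. This was 0.0137% to 0.0195% of gene counts in roots and 0.411%, 0.189% and 0.294% in shoots. The organs did not overlap, which is built in, as the stretch was chosen for its shoot-higher calls in these same libraries. The shoot libraries differed from each other by over 2-fold. Without Fe the sums were 0.0114% to 0.0131% in roots and 0.180% to 0.322% in shoots. Of the 37 genes of the stretch tested there, 36 were called higher in shoots, beside 13.0% of all genes tested without Fe.

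**Figure D4:**
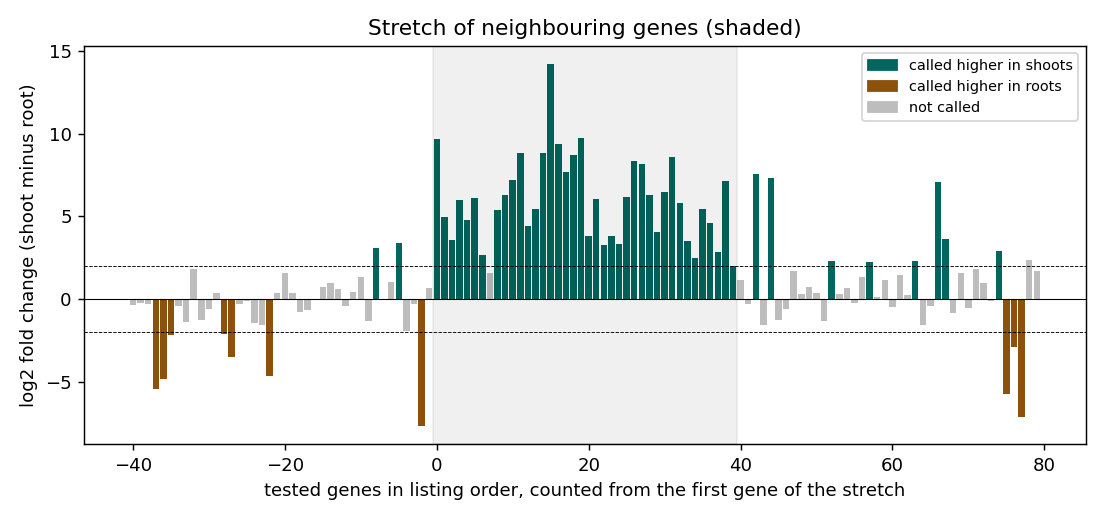
Log2 fold change (shoot minus root) of tested genes in listing order around the stretch of Potri.013 IDs (shaded), counted from its first gene; green bars are called higher in shoots, brown bars higher in roots and grey bars not called, and dashed lines mark 4-fold. Of the 40 shaded genes 39 are green, and the single grey one, at 1.60, is above 0 too.

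The stretch was part of a wider tilt among the Potri.013 IDs. Over the 19 numbered prefixes, 11.9% to 21.2% of tested genes were called higher in shoots, with a median of 13.8%, and Potri.013 held the highest share (197 of 931). Without the 40 genes of the stretch its share was 158 of 891, or 17.7%. It also had the lowest share of root-higher calls, 8.59%, where Potri.019 had the highest at 16.4%. In the Fe-deficient libraries 18.9% of its tested genes were called higher in shoots.

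The Potri.T IDs tilted the other way. Of 2085 listed IDs, 553 (26.5%) had enough counts to be tested, against 44.5% to 62.8% in the numbered prefixes. Of these, 133 (24.1%) were called higher in roots, above each of the 19 numbered prefixes (8.59% to 16.4%), and 75 (13.6%) higher in shoots. The median log2 fold change of the Potri.T genes was -0.32. Without Fe, 24.8% were called higher in roots and 13.3% higher in shoots. The second highest share of root-higher calls was that of Potri.019, at 16.4% with Fe and 14.4% without.

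The same contrast was then read in the 6 Fe-deficient libraries, which shared no library with the first. There, 2699 (11.3%) of 23871 tested genes were called higher in roots and 3100 (13.0%) higher in shoots. Of the 2717 root-higher calls that could be tested again, 2189 (80.6%) were called in the same direction, and 2696 (99.2%) had the same sign. Of the 3297 shoot-higher calls, 2711 (82.2%) were called again and 3293 (99.9%) had the same sign. The shared calls were 81.1% of the root-higher and 87.5% of the shoot-higher calls of the Fe-deficient set. Calls of at least 16-fold numbered 1106 in roots and 1493 in shoots, of which 998 and 1423 could be tested again. Of those tested again, 965 (96.7%) in roots and 1415 (99.4%) in shoots were called again. Over the 23307 genes tested in both sets, the log2 fold changes had a Pearson's r of 0.952 and a Spearman's rho of 0.931. These values are descriptions across genes, and both sets share the difference in counting.

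**Figure D5:**
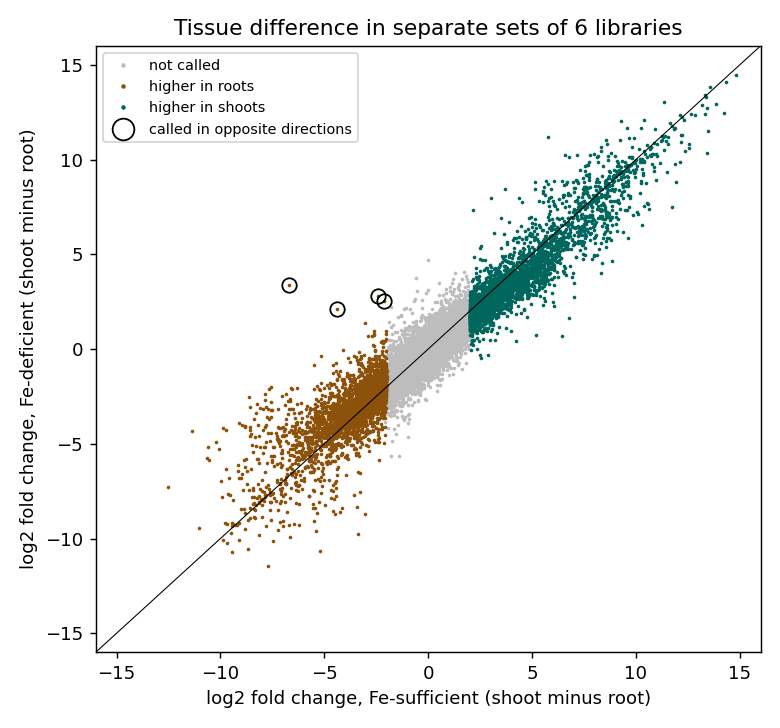
Log2 fold change (shoot minus root) in the 6 Fe-deficient libraries against that in the 6 Fe-sufficient libraries, 1 point per gene tested in both, coloured by the Fe-sufficient call; the line marks equal values. Points follow the line (Pearson's r 0.952), and 4 circled genes were called in opposite directions.

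Opposite calls were found for 4 genes, all higher in roots with Fe and higher in shoots without it, while 0 genes showed the reverse. They are named here after their values were seen, so a test of the change in the same libraries is no separate support. Potri.011G053300 had 23.9, 35.1 and 18.7 CPM in roots and 11.2, 3.87 and 2.64 CPM in shoots with Fe. Without Fe it had 6.59, 1.25 and 5.04 CPM in roots and 24.6, 23.6 and 26.9 CPM in shoots, so that the organs changed places without overlap in either supply. Its tissue difference changed by -4.71 ± 0.733 (log2, Fe-sufficient minus Fe-deficient, SE; adjusted p by edgeR 0.0112). Potri.T178900 had 11.5, 5.40 and 6.46 CPM in roots and 0, 0 and 1.10 CPM in shoots with Fe. Without Fe the root levels were 1.35 to 2.45 CPM and the shoot levels 2.37 to 11.9 CPM, so the lowest shoot library then lay just below the highest root library. Potri.019G130500 and Potri.001G226500 were lower genes, at 3.02 ± 0.470 and 1.55 ± 0.258 CPM (SD, n = 3 each) in roots with Fe. Shoots with Fe held 8 counts of the former and 0 of the latter over 3 libraries.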

How the data were processed

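The authors deposited raw counts of reads per gene ID, 1 file per library, not normalised. The tools named in the submitters' processing notes are edgeR 3.16.5, HTSeq 2.2.1, HISAT2 2.0.5 and Trimmomatic 0.36. Settings, build, annotation and strandedness: not given in the sources used here. Root replicates were numbered in accession order, shoot replicates by title. The 5 rows of reads given to no gene held 59.2% to 64.0% of all reads in Fe-sufficient root and 72.7% to 73.1% in shoot libraries, and stayed out of library sizes and tests.

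Counts were tested with edgeR 4.0.16 (R 4.3.3): quasi-likelihood F test, robust, TMM, filterByExpr (minimum count 10), Benjamini-Hochberg adjustment over all tested genes. Calls needed adjusted p under 0.05 and at least 4-fold. Each SE is the size of the log2 fold change over the root of its F value. The change with Fe supply is a contrast in 1 fit of 12 libraries. The code was tested on simulated data. No 2 replicates agreed within sampling noise (chi-square per degree of freedom 7.03 to 18.8).

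Named genes are the 2 of largest fitted fold per direction (at least 10 CPM in the higher tissue, no overlap). To these were added the 2 per direction of largest difference in share. Gene lists by description could not be used without names, and no sequence was used. Members, lists and rules were chosen with earlier results of these data known. Alternatives were other scalings, filters, thresholds, DESeq2 1.42.0, 1 fit of 12 libraries and leaving out each library.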

Additional observations from a re-analysis of the deposited data

Results flagged for a closer look

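For the 4 genes with opposite calls, the change of the tissue difference with Fe supply was tested too (contrast in 1 fit of 12 libraries, adjusted p by edgeR). They were chosen for opposite 4-fold calls in these same libraries. A large change was thus built in, and the test is no separate support. The log2 change (Fe-sufficient minus Fe-deficient) was -4.71 for Potri.011G053300, -5.26 for Potri.019G130500, -6.56 for Potri.T178900 and -10.11 for Potri.001G226500, with adjusted p of 0.0112, 0.0267, 0.012 and 0.00637. The prior count sets the size of the last value, as its Fe-sufficient shoot libraries held 0 counts. In that fit 313 of 25046 genes (1.25%) passed, and none of the 8 genes named for fold or share was among them. For Potri.003G099500 and Potri.010G218900 the change could not be estimated, with 0 counts in all root libraries (SE 501.6 and 389.2). The prior count sets the size of the change for Potri.006G202600 and Potri.018G098000, with 0 counts in Fe-sufficient shoots. Not passing is thus no sign of a steady difference in these genes.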

How the results depend on the processing

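The 4-fold count of 6312 became 3999 at 8-fold and 2599 at 16-fold, as fewer genes reach a higher fold. Under the other settings (scalings, filters, DESeq2, adjusted p under 0.01, glmTreat against 2-fold, 1 fit of 12 libraries, Fe-deficient libraries) it was 5799 to 7959, and 6359 to 6865 with 1 library left out. The any-fold count was 11380 to 16228, and 12832 to 15138 with 1 library left out. Genes in 1 tissue alone numbered 497, and 563 to 659 with 1 library left out, when root-only genes numbered 241 to 369 and outnumbered shoot-only genes wherever a shoot library was left out. They were 800 (481 in roots) with at least 10 counts in 3 libraries against at most 1 in each other library, and 258 over all 12 libraries, an alternative chosen after seeing the data. The share of calls followed by a call in the same direction was 21.3% at 4-fold, where 26.4% of tested genes were called. At 16-fold it was 14.8% (16.1% for roots, 13.8% for shoots). There 1106 root-higher and 1493 shoot-higher genes were called, 10.9% of tested genes together. These 2 shares have unlike backgrounds, so the lower value does not show weaker clustering. With 1 library left out the 4-fold share was 21.7% to 22.3%. For the 10 most abundant genes, the tissues differed in share by 5.91 percentage points, and 5.34 to 6.43 with 1 library left out. Named genes kept direction and call in 123 of 124 values, the exception being Potri.001G418500 in the Fe-deficient libraries. No paired analysis was possible because the labels give root replicates no number that shoot replicates share. Shoot depth limits what is seen at low levels.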
